A study of Homo sapiens with 30 samples.

Results

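The genes described here are 9 genes of MHC class I antigen presentation, namely HLA-B, HLA-C, HLA-E, HLA-F, B2M, TAP1, TAP2, TAPBP and NLRC5. They were taken by symbol, and all 9 were found in each of 3 count tables of poly(A) RNA-seq, among 60612 genes in the RBPMS knockout table and 56303 in each of the ANKRD10 tables. All 9 passed the filter on low counts in every comparison. The samples were 30 libraries of 5637 cells, a human bladder carcinoma line, with 3 libraries in each of 10 groups. The knockout experiment compared cells of the genotype KO1 with WT1 and KO2 with WT2, the KO cells being expanded from single clones edited in RBPMS, an RNA-binding protein that regulates splicing. The overexpression experiment compared ANKRD10-1 and ANKRD10-2, which stand for different transcripts of the ankyrin repeat gene ANKRD10, with an empty Vector. The knockdown experiment compared siANKRD10-1 and siANKRD10-2 with the control siRNA siNC, given by lipid transfection. The labels name no genotype other than 5637 cells for the overexpression and knockdown groups, whereas the study's text places the sequenced ANKRD10-1 overexpression and siANKRD10-2 cells on an RBPMS knockout background, and which it was cannot be told from the labels. On the log2 scale RBPMS itself differed from Vector by −0.19 with ANKRD10-1 (adjusted p = 0.472, edgeR's quasi-likelihood test). It differed from siNC by 0.03 with siANKRD10-2 (adjusted p = 0.894), and from the WT groups by −1.44 in KO1 and −1.09 in KO2. Where the control shares the background, a knockout would not show in these differences. For the sequenced ANKRD10-2 overexpression and siANKRD10-1 cells the study's text names 5637 cells without a knockout. On the log2 scale RBPMS was 0.27 higher with ANKRD10-2 than with ANKRD10-1 (adjusted p = 0.306). It was 0.14 higher with siANKRD10-2 than with siANKRD10-1 (adjusted p = 0.421). Per 1000000 counts, RBPMS averaged 4.49 to 5.28 in the overexpression groups and 4.62 to 5.18 in the knockdown groups. It averaged 14.65 in KO1, 19.99 in KO2, 41.04 in WT1 and 43.84 in WT2. The count tables were made separately, and these levels were not tested across them. Nothing in the labels says that the 3 libraries of a group came from separate cultures, so p-values measure the spread between these libraries, which may be technical.

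MHC class I molecules show peptides from inside the cell to CD8 T cells and natural killer cells. A polymorphic heavy chain pairs with the invariant light chain β2-microglobulin in the endoplasmic reticulum. The transporter TAP, a heterodimer of TAP1 and TAP2, carries peptides in from the cytosol, and tapasin holds empty class I molecules beside it until they are loaded. The genes share promoter elements through which interferon, NF-κB and the transactivator NLRC5 raise their transcription, and tumor cells often carry them at reduced levels.

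Library totals ranged from 44593108 to 69723937 counts in the knockout experiment, from 31736779 to 47493499 in the overexpression experiment and from 28511029 to 32784584 in the knockdown experiment. Levels are given as counts scaled to a library total of 1000000 (CPM), and differences as log2 fold changes with their standard error (SE). RBPMS fell from between 40.01 and 42.8 CPM in WT1 to between 13.96 and 15.01 CPM in KO1, and from between 43.0 and 44.9 CPM in WT2 to between 18.7 and 20.7 CPM in KO2. Its transcript was therefore lower in all 6 knockout libraries but not absent. ANKRD10 counts of all transcripts together were 0.67 (SE 0.04) and 0.41 (SE 0.05) higher on the log2 scale with ANKRD10-1 and ANKRD10-2 than with Vector, and 0.24 (SE 0.06) and 0.25 (SE 0.06) lower with the siRNAs 1 and 2 than with siNC. In the knockouts ANKRD10 differed from the WT groups by −1.175 (SE 0.05) in KO1 and −0.76 (SE 0.04) in KO2. The KO1 effect minus the KO2 effect was −0.42 (SE 0.06). Summed over 10 epithelial markers, 3900 to 6840 CPM were found in every library, and each of the 10 was above 1 CPM on average in each experiment. Summed over 10 leukocyte markers, the range was 0.68 to 3.14 CPM, and PTPRC and CD3E were under 1 CPM in all 3 experiments.

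Per kilobase of exon, levels in the Vector group were highest for HLA-B at 109.6 ± 2.37 CPM per kb (SD, n = 3), HLA-C at 100.5 ± 0.97 and B2M at 94.8 ± 6.26, followed by HLA-E at 69.8 ± 1.66. The transporter and loading genes were lower, with TAP2 at 7.09 ± 0.52, TAP1 at 6.52 ± 0.40 and TAPBP at 5.19 ± 0.46 CPM per kb. HLA-F at 3.44 ± 0.19 and NLRC5 at 0.783 ± 0.0558 were lowest. HLA-C and B2M lay within their spread of each other, as did TAP2 and TAP1. The order of genes depends on the exon lengths used, which were 6089 bases for B2M and 3012 for HLA-B. Before division by length, B2M was at 577 CPM and HLA-B at 330 CPM on average in Vector. In siNC the order was HLA-C at 49.0 ± 2.68, B2M at 44.2 ± 1.09, HLA-B at 40.8 ± 0.82 and HLA-E at 21.2 ± 0.03 CPM per kb, then TAP2, TAPBP and TAP1 at 7.70, 5.52 and 3.14. In WT1 B2M stood first at 124.9 ± 6.62 and TAPBP second at 25.6 ± 1.58, ahead of HLA-C at 22.1 ± 0.24, HLA-E at 18.0 ± 0.83 and HLA-B at 15.5 ± 0.63 CPM per kb. B2M counts were 4.86 times the summed counts of the 4 heavy chain genes in WT1 (SD 0.30, n = 3), 0.717 times in Vector (SD 0.0396) and 0.863 times in siNC (SD 0.0445). The tables list different sets of genes and were made separately, and exon lengths come from the overexpression and knockdown tables, so levels were not tested across tables. Heavy chain genes are highly similar and polymorphic, and reads shared between them can be assigned to either or lost, which leaves the division among them uncertain.

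The first comparison asked how the class I genes differed in each RBPMS knockout from its own WT group. In KO1 the classical heavy chains, light chain, transporter, tapasin and transactivator were all higher than in WT1, by 1.22-fold for TAPBP to 2.86-fold for HLA-B. Of the 9 genes, 8 were higher at an adjusted p under 0.05 (edgeR's quasi-likelihood test, Benjamini-Hochberg over 17865 genes), and none was lower. Over all genes tested 36.1% were called, 17.9% as higher. The median log2 fold change of the 9 genes was 0.74, against −0.002 over all genes. In KO2, 3 of the 9 were higher, where 38.5% of 18267 genes were called and 19.3% as higher, and 1 was lower, as were 19.2% of all genes, with a median of 0.14 against −0.016 over all genes.

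**Figure D1:**
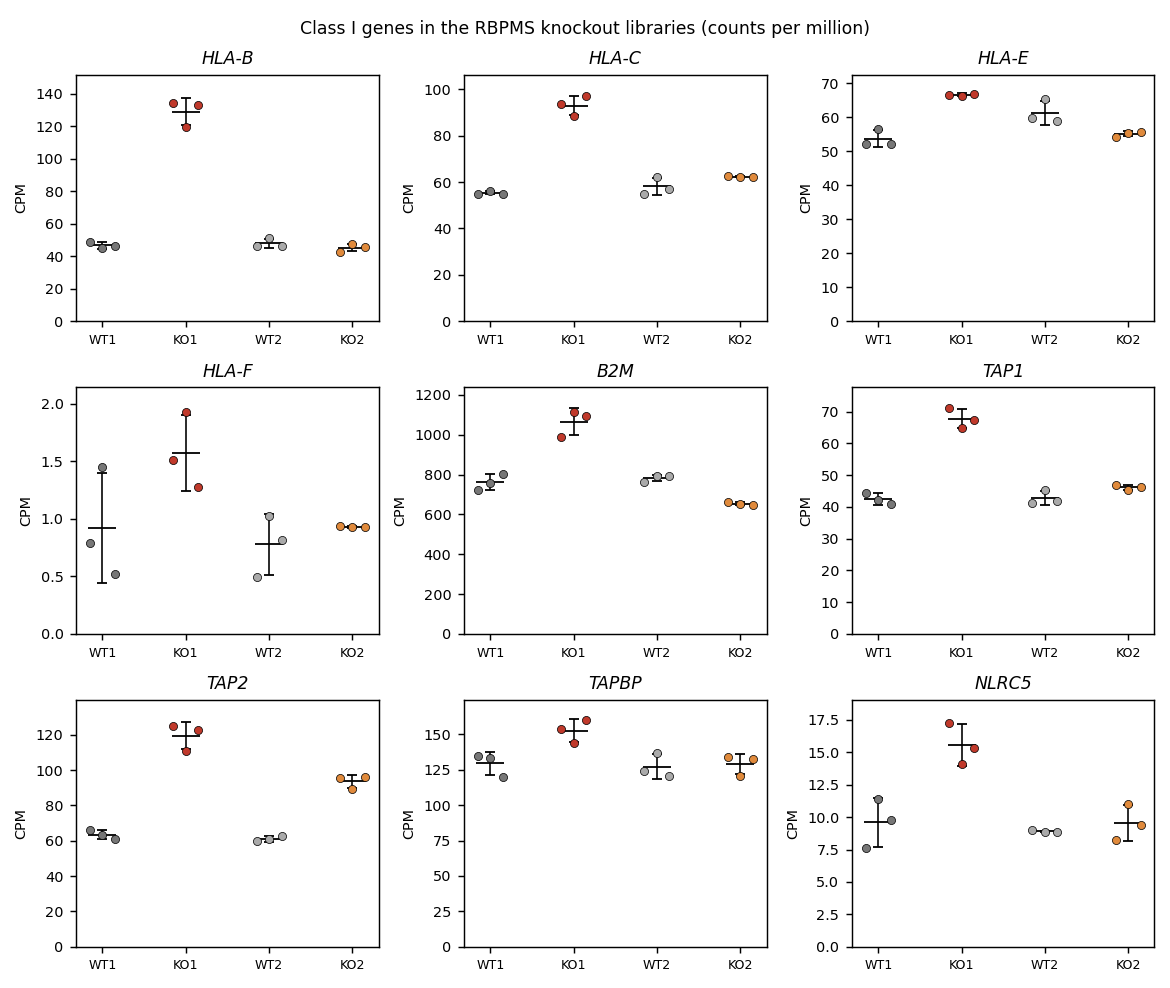
Levels of the 9 genes in each library of the knockout experiment, as scaled counts (CPM) on linear axes from 0, with 1 point a library and the mean ± SD of 3 libraries as black bars. KO1 libraries lie above the WT1 libraries for 8 genes, with HLA-B at 119 to 134 against 44.7 to 48.5 CPM, while KO2 lies clearly above WT2 for TAP2.

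Among the heavy chains, HLA-B (GRCh38 chr6:31353872-31357188, minus strand) was at 134, 119 and 133 CPM in the KO1 libraries and at 48.5, 44.7 and 46.4 CPM in WT1. Every KO1 library was thus well above every WT1 library, and the log2 fold change of 1.51 (SE 0.06) had an adjusted p of 2.7e-08. In KO2 it was at 42.9, 47.4 and 45.7 CPM against 46.3, 51.2 and 46.0 CPM in WT2. These groups overlapped, and the log2 difference of −0.03 had a 95% interval of −0.16 to 0.10.

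HLA-C (chr6:31268749-31272130, minus strand), the other classical heavy chain, was at 93.5, 88.6 and 97.1 CPM in KO1 and at 55.0, 56.1 and 55.1 CPM in WT1. The groups were far apart, and HLA-C rose by 0.79 on the log2 scale (SE 0.05, adjusted p = 1.61e-06). In KO2 it was at 62.5, 62.3 and 62.0 CPM against 55.0, 62.1 and 57.2 CPM in WT2, and the log2 fold change was 0.14 (SE 0.05, adjusted p = 0.0454). In CPM the highest WT2 value reached those of KO2, although the groups were apart after TMM scaling, and that call was lost without any one of the 3 KO2 libraries (adjusted p = 0.0807, 0.099 and 0.102), without WT2 replicate 1 (0.173) and without WT2 replicate 3 (0.128). With upper quartile factors its adjusted p was 0.0916.

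HLA-E (chr6:30489467-30494205, plus strand), which presents leader peptides of other class I chains to natural killer cells, was at 66.7, 66.1 and 67.0 CPM in KO1 and at 52.2, 56.5 and 52.2 CPM in WT1. The log2 fold change was 0.36 (SE 0.06, adjusted p = 0.000475), the smallest called among the heavy chains, and no KO1 value overlapped WT1. In KO2 the values were 54.3, 55.3 and 55.8 CPM against 59.8, 65.4 and 58.9 CPM in WT2. The KO2 values were all lower, but the log2 difference of −0.11 (95% interval −0.22 to 0.0016) did not pass the test (adjusted p = 0.113). HLA-F (chr6:29722775-29738528, plus strand), a non-classical heavy chain, was scarce in this table, at 1.51, 1.93 and 1.28 CPM in KO1 and at 0.788, 1.45 and 0.522 CPM in WT1. These values overlapped, and the log2 difference of 0.82 (SE 0.38) had an adjusted p of 0.12, with 0.0253 when WT1 replicate 2 was left out and 0.0303 against all 6 WT libraries.

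Added together, the 4 heavy chain genes were at 296, 276 and 299 CPM in KO1 and at 157, 159 and 154 CPM in WT1. Their sum, which does not depend on how shared reads were divided among these 4 genes, was 0.94 higher on the log2 scale (SE 0.05, adjusted p = 1.82e-07). In KO2 the sum was at 161, 166 and 165 CPM against 162, 180 and 163 CPM in WT2, and its log2 difference was 0.0048 (SE 0.04), or −0.016 with upper quartile factors. HLA-B took 44.4% ± 1.06 of heavy chain counts in KO1 (SD, n = 3) and 29.8% ± 1.45 in WT1, with 27.7% ± 0.93 in KO2 and 28.4% ± 0.20 in WT2. The lowest KO1 library was at 43.3%, above the 31.0% of the highest WT1 library.

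B2M (chr15:44711477-44718877, plus strand), the light chain, was at 988, 1115 and 1092 CPM in KO1 and at 721, 760 and 802 CPM in WT1. Each KO1 library was above each WT1 library, and the rise on the log2 scale was 0.53 (SE 0.06, adjusted p = 7.21e-05). In KO2 it moved the other way, to 662, 654 and 648 CPM from 765, 792 and 791 CPM in WT2. The groups did not overlap, and the fall by 0.22 on the log2 scale (SE 0.03) had an adjusted p of 5.87e-05. It was the only member called lower in either knockout.

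TAP1 (chr6:32845209-32853978, minus strand) was at 71.1, 65.0 and 67.4 CPM in KO1 and at 44.5, 42.1 and 40.8 CPM in WT1, a rise of 0.72 on the log2 scale (SE 0.06, adjusted p = 4.41e-06). In KO2 it was at 47.0, 45.4 and 46.4 CPM against 41.1, 45.4 and 41.9 CPM, so that the lowest KO2 value and the highest WT2 value met in CPM, while the groups were apart after TMM scaling. That log2 fold change was 0.15 (SE 0.05, adjusted p = 0.0335), and the call was lost without KO2 replicates 1, 2 or 3 (adjusted p = 0.0827, 0.0589 and 0.0881) and without WT2 replicates 1 or 3 (0.13 and 0.112). With upper quartile factors its adjusted p was 0.0672. TAP2 (chr6:32821833-32838780, minus strand) was at 125, 111 and 123 CPM in KO1 against 66.3, 63.4 and 60.9 CPM in WT1, and at 95.5, 89.5 and 96.3 CPM in KO2 against 59.8, 60.7 and 62.8 CPM in WT2. Both knockouts lay above all WT libraries, by 0.96 (SE 0.06, adjusted p = 6.59e-07) and 0.66 (SE 0.05, adjusted p = 4.12e-07) on the log2 scale. TAP2 was the only member called higher in both knockouts with no overlap of CPM values in either.

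Counts of TAP2 per count of TAP1 rose from 1.495 ± 0.0084 (SD, n = 3) in WT1 to 1.76 ± 0.06 in KO1, and from 1.43 ± 0.08 in WT2 to 2.03 ± 0.05 in KO2. In both pairs the libraries did not overlap, so the transporter genes did not change in proportion.

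TAPBP (chr6:33299694-33314387, minus strand), which encodes tapasin, was at 153, 144 and 160 CPM in KO1 and at 135, 133 and 120 CPM in WT1. Its rise of 0.28 (SE 0.06, adjusted p = 0.00307) was the smallest of the 8 called. In KO2 it was at 134, 121 and 133 CPM against 124, 137 and 121 CPM in WT2, with overlapping groups and a log2 difference of 0.06 (95% interval −0.05 to 0.18). NLRC5 (chr16:56989485-57083531, plus strand), the class I transactivator, was at 17.3, 14.1 and 15.3 CPM in KO1 and at 7.63, 11.4 and 9.81 CPM in WT1. All KO1 values were higher, by 0.74 on the log2 scale (SE 0.14, adjusted p = 0.00212). In KO2 it was at 8.25, 11.01 and 9.39 CPM against 8.97, 8.88 and 8.86 CPM in WT2, which overlapped (log2 difference 0.14, 95% interval −0.12 to 0.41).

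The difference between the knockouts was tested directly, as the KO1 effect minus the KO2 effect over all 12 libraries. Of the 9 members 7 differed, all with the larger effect in KO1, where 23.3% of all genes differed and 11.2% in that direction. The difference was 1.55 on the log2 scale for HLA-B (SE 0.09), 0.74 for B2M (SE 0.07), 0.65 for HLA-C (SE 0.07) and 0.56 for TAP1 (SE 0.07). For HLA-E it was 0.46 (SE 0.07), and for TAP2, which rose in both, 0.29 (SE 0.07, adjusted p = 0.00904). For NLRC5 it was 0.59 (SE 0.20, adjusted p = 0.0397), a call that was lost in 9 of the 12 fits without 1 library, those without KO1 replicates 1 and 3, KO2 replicates 1 and 3, WT1 replicates 1 and 3 and each WT2 library, with adjusted p from 0.0616 to 0.105, and without the filter on low counts (0.0653). TAPBP (0.21, 95% interval 0.03 to 0.40, adjusted p = 0.0886) and HLA-F (0.52, −0.59 to 1.62) did not pass. Without KO1 replicate 2 the adjusted p of TAPBP was 0.0484. Between the WT groups themselves 0 of the 9 genes differed in edgeR (1.23% of all genes called) at an adjusted p under 0.05. HLA-E alone had an unadjusted p under 0.05 there (log2 difference 0.19, SE 0.06, adjusted p = 0.146), and DESeq2 called it (adjusted p = 0.0463).

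The promoters of the members are shown because 8 of the 9 genes moved together in KO1. They come from RefSeq on GRCh38.p14 and cover 250 bases before to 50 after the start, and 7 of the 9 genes had an entry, with the first listed start used where there were more. The following 30-base windows are written 5′ to 3′ on the strand of the gene. Capitals mark matches, on either strand, to GGGNNTTNCC, the core of an NF-κB site, and to AANNGAAA, a shortened interferon-response core, in the heavy chain promoters.
HLA-B (chr6:31357327-31357356): GGGGATTCCCcactcccctgagTTTCACTT
HLA-C (chr6:31272236-31272265): ggggattctccactcccctgagTTTCACTT
HLA-F (chr6:29723256-29723285): agaattccccatctccccagagTTTCTCTT
Each of these windows was cut to end with the shortened interferon-response core, so its place within the window says nothing. From the gene start the core began at base −155 in HLA-B, −151 in HLA-C and −156 in HLA-F. The NF-κB letters were matched in HLA-B and not in HLA-C or HLA-F. In the next windows capitals mark the longer interferon-response core GAAANNGAAA, overlapping copies joined, in the light chain, transporter and tapasin genes.
B2M (chr15:44711363-44711392): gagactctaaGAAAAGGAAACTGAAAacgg
TAP1 (chr6:32853819-32853848): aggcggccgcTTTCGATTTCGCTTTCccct
TAP2 (chr6:32838778-32838807): ctggggaagcGAAAGCGAAAgctgcccgag
TAPBP (chr6:33314079-33314108): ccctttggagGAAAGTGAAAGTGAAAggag
The longer core was found in 5 of the 7 promoters, HLA-F with these 4, and in 3.65% of all 27305 promoters of the same length. The shorter core, which every longer one contains, was found in all 7 and in 23.2% of promoters, and GGGNNTTNCC in 4 (HLA-B, B2M, TAP1 and TAPBP) and in 5.67%. Elements bound by the complex that NLRC5 joins were searched as TGACG and CCAAT.
HLA-B (chr6:31357256-31357285): TGACGcgtccccacttcccactcccATTGG
HLA-C (chr6:31272168-31272197): TGACGcgtccCCAATtcccactcccATTGG
TGACG was found in 4 of the 7 promoters and in 25% of all, and CCAAT in 5 and in 35.7%. Both windows were cut to begin with TGACG, and both end with ATTGG, which is CCAAT on the other strand. HLA-C has a further CCAAT between them, at base −95 from the gene start, that HLA-B lacks. The part of these elements in the fold changes was not tested. A match describes the letters and is not evidence of binding.

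The other genes of the pathway were taken from fixed lists. Over all genes 36.1% were called in KO1, 17.9% as higher. In KO2 38.5% were called, 19.3% as higher and 19.2% as lower. These shares belong beside the KO1 and KO2 counts here and in the paragraphs that follow. Of 14 genes of peptide supply and loading, 11 were higher and 1 lower in KO1, with a median log2 fold change of 0.52. The immunoproteasome subunits PSMB9, PSMB8 and PSMB10, which replace standard proteasome subunits and favor class I ligands, rose by 1.45 (SE 0.08), 0.87 (SE 0.07) and 0.82 (SE 0.09), and TAPBPL, which edits peptides on class I molecules, rose by 1.43 (SE 0.18). PSMB9 lies head to head with TAP1, whose log2 fold change was 0.72. In KO2, 5 of the 14 were higher and 2 lower, with a median of 0.07. The rises there were led by the chaperones CANX at 0.38 (SE 0.03), PDIA3 at 0.38 (SE 0.03) and CALR at 0.35 (SE 0.03), whereas LNPEP, an endosomal aminopeptidase, fell by 0.30 (SE 0.06). Tested directly, the KO1 effect exceeded the KO2 effect by 1.36 for PSMB9 (SE 0.16, adjusted p = 1.08e-05), by 0.89 for PSMB8 (SE 0.08, adjusted p = 1.06e-06) and by 0.66 for PSME2 (SE 0.07, adjusted p = 5.12e-06), a proteasome activator subunit.

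Of 12 listed class II genes 5 were tested in KO1, of which 3 were higher. CIITA, the class II transactivator and a relative of NLRC5, rose by 1.81 (SE 0.30, adjusted p = 0.000669), and CD74, the invariant chain, by 2.47 (SE 0.40, adjusted p = 0.000669). HLA-DRA averaged only 10.4 normalized counts and is named because it was the remaining call. In KO2 both CIITA and CD74 were lower, at −0.99 (SE 0.31, adjusted p = 0.0254) and −1.97 (SE 0.63, adjusted p = 0.0266), CD74 being named there after its values were seen. The direct difference for CIITA was 2.80 (SE 0.48, adjusted p = 0.000443).

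Of 26 transcription and signalling genes, 5 were higher and 8 lower in KO1, with a median of −0.08. SOCS1, an inhibitor of interferon signalling, rose by 0.84 (SE 0.22), while the type I interferon signalling genes TYK2, STAT2 and IFNAR2 fell by 0.76 (SE 0.07), 0.69 (SE 0.08) and 0.51 (SE 0.07). IRF1, named after its values were seen, rose by 0.33 (SE 0.06, adjusted p = 0.00118). In KO2, 6 were higher and 11 lower, and SOCS1 rose there too, by 0.59 (SE 0.22, adjusted p = 0.0493). RFX5, a DNA-binding subunit of the complex on class I and class II promoters, differed between the knockouts by 0.54 (SE 0.08, adjusted p = 8.93e-05). Of 38 listed interferon-stimulated genes 35 were tested in KO1, and 13 were higher and 5 lower (median 0.26). IFI35, GBP1 and IFIT3 rose by 2.04 (SE 0.25), 1.09 (SE 0.07) and 1.18 (SE 0.10) and MX1 fell by 1.46 (SE 0.26). In KO2, 5 were higher and 14 lower of 36 (median −0.14), with GBP1 at 1.09 (SE 0.06), MX1 at 1.055 (SE 0.14) and IFI44 at −3.56 (SE 0.26). For MX1 the KO1 effect minus the KO2 effect was −2.51 (SE 0.28).

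Ligands of the activating receptor NKG2D and class I-like genes gave 3 higher and 1 lower of 10 in KO1, and 6 higher and 1 lower in KO2. For these and the following counts, the shares over all genes were 36.1% called in KO1, 17.9% as higher, and 38.5% in KO2, 19.3% as higher. MICA, a stress-induced ligand, rose in KO2 by 0.90 (SE 0.13) and RAET1L by 1.04 (SE 0.18), and the KO1 effect minus the KO2 effect was −1.07 (SE 0.17) and −1.46 (SE 0.26). Of the 95 other genes tested on chromosome 6 between the start of HLA-F and the end of TAPBP, 18 were higher and 7 lower in KO1 (median 0.10), and within 2 Mb of B2M 6 were higher and 7 lower of 42. Within 2 Mb of NLRC5, 15 were higher and 2 lower of 38 in KO1 (median 0.105). In KO2 the counts were 17 higher and 12 lower of 98 on chromosome 6, and 7 higher and 15 lower of 44 near B2M. Near NLRC5 they were 18 higher and 2 lower of 37 (median 0.17). The part of chromosomal location in the class I differences was not tested. Summed fibroblast markers were lower in KO1, at 32.1 to 37.8 CPM against 54.2 to 58.8 CPM in WT1, a sum carried mostly by COL1A1 (mean 46.3 CPM over the 12 libraries), with LUM at 2.26 CPM and the other 6 of the 8 markers under 1 CPM on average, and leukocyte markers were at 1.28 to 1.77 against 0.966 to 1.62 CPM. The part of fibroblast markers in the class I differences was not tested.

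**Figure D2:**
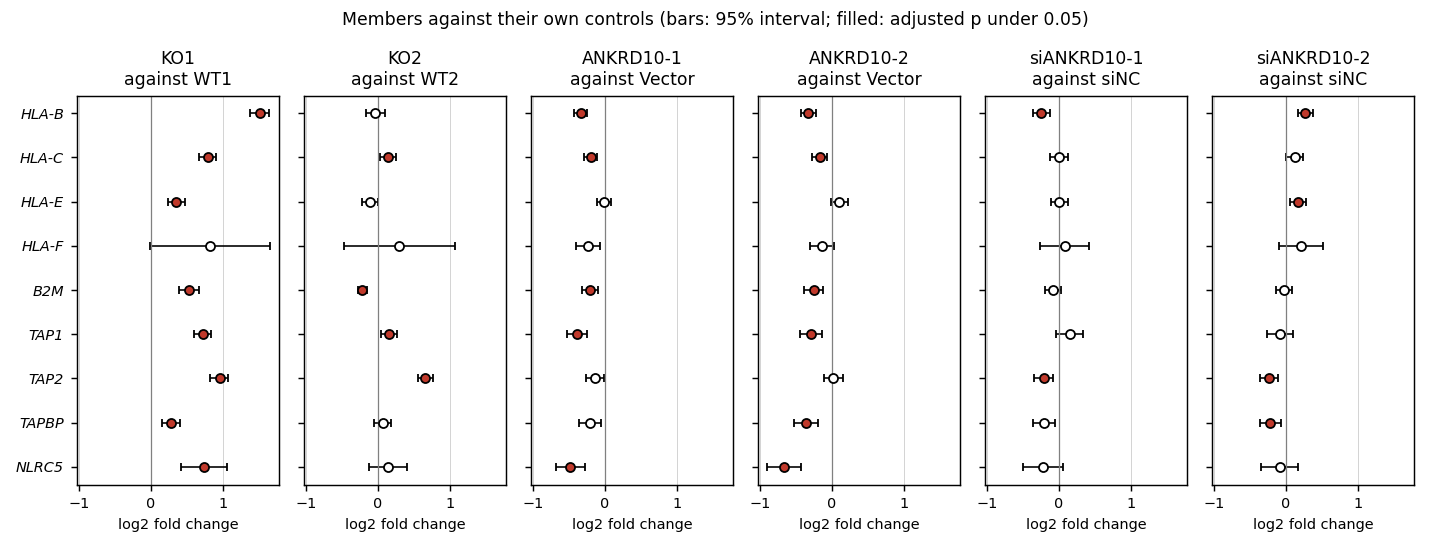
Log2 fold change of the 9 genes against their own control group in 6 comparisons, with bars for the 95% interval and filled points for an adjusted p under 0.05. All 9 lie above 0 in KO1, up to 1.51 for HLA-B, all 9 lie below 0 with ANKRD10-1, and the siRNAs leave HLA-B on opposite sides of 0.

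The second comparison asked how these genes differed between each ANKRD10 overexpression group and Vector. With ANKRD10-1, 5 of the 9 were lower than with Vector and none was higher, where 6.31% of all 20457 genes were called and 2.81% as lower. With ANKRD10-2, 6 were lower and none higher, where 19.9% of 20177 genes were called and 9.25% as lower. The medians were −0.21 and −0.26, against −0.0035 and −0.0055 over all genes. The 2 comparisons share the Vector libraries and are not independent of each other. HLA-B, HLA-C, B2M, TAP1 and NLRC5 were lower in both, and among them HLA-C fell by 11.3% and NLRC5 fell by 37.2% with ANKRD10-2, the smallest and the largest of these changes.

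**Figure D3:**
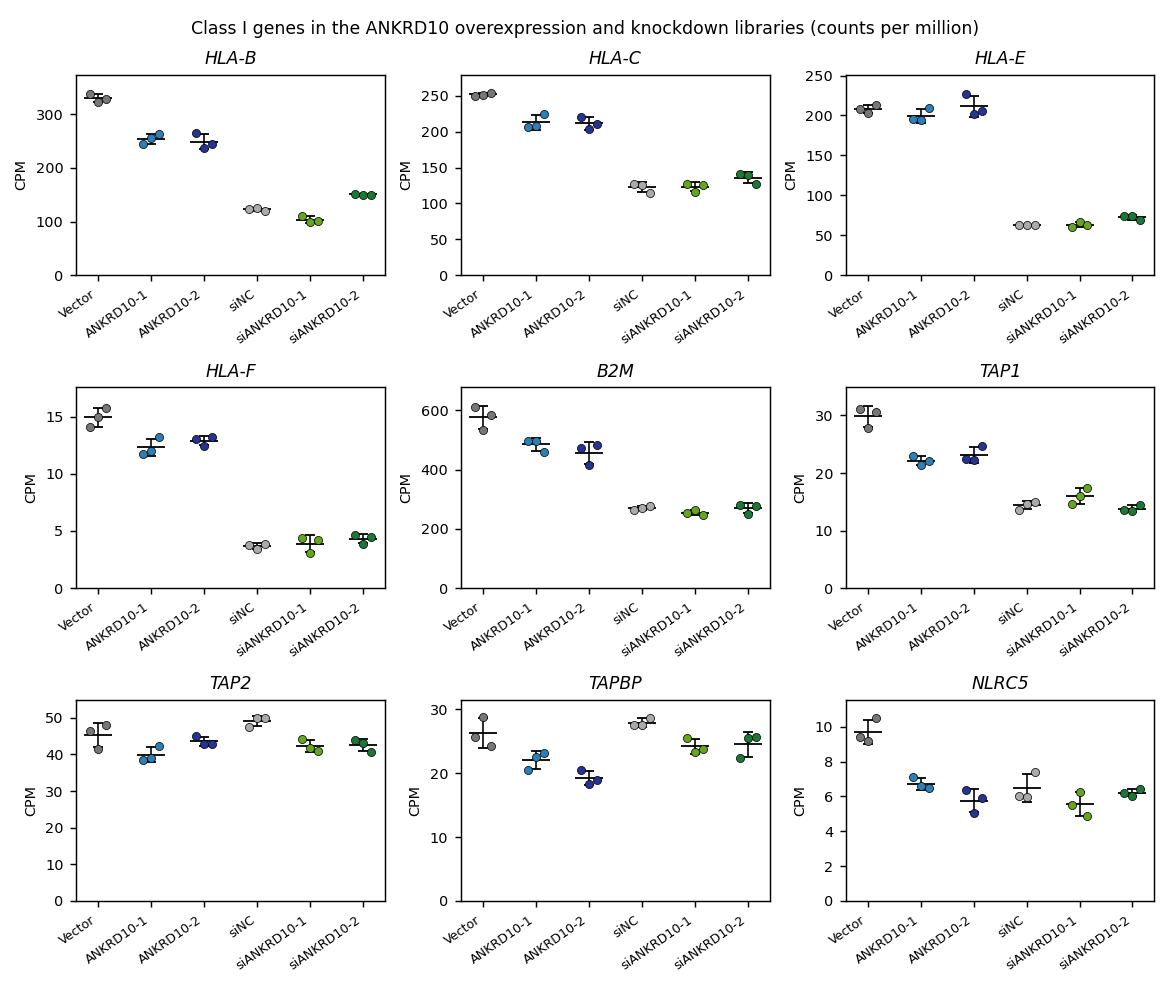
Levels of the 9 genes in each library of the overexpression and knockdown experiments, as scaled counts (CPM) on linear axes from 0, with 1 point a library and the mean ± SD of 3 libraries. All 6 overexpression libraries lie below Vector for HLA-B, at 237 to 264 against 324 to 338 CPM, and NLRC5, at 5.04 to 7.10 against 9.20 to 10.5 CPM.

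NLRC5 showed the largest fall among the members with either transcript. It was at 9.40, 9.20 and 10.5 CPM with Vector, at 7.10, 6.61 and 6.46 CPM with ANKRD10-1 and at 6.35, 5.04 and 5.88 CPM with ANKRD10-2. No library overlapped Vector, and the log2 fold changes were −0.48 (SE 0.10, adjusted p = 0.00468) and −0.67 (SE 0.11, adjusted p = 0.000785).

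HLA-B was at 338, 324 and 329 CPM with Vector, at 244, 257 and 263 CPM with ANKRD10-1 and at 264, 237 and 245 CPM with ANKRD10-2. The overexpression libraries were all lower, with log2 fold changes of −0.33 (SE 0.04, adjusted p = 7.87e-05) and −0.33 (SE 0.05, adjusted p = 0.000467). HLA-C was at 249.6, 252 and 254 CPM with Vector, 207, 208 and 225 CPM with ANKRD10-1, and 221, 204 and 210.3 CPM with ANKRD10-2. It too did not overlap Vector, with log2 fold changes of −0.20 (SE 0.04, adjusted p = 0.0109) and −0.17 (SE 0.05, adjusted p = 0.0191). The HLA-C call was lost for ANKRD10-1 without its replicate 1 (adjusted p = 0.0649) or 2 (0.0662), and for ANKRD10-2 without its replicate 2 (0.0852) or 3 (0.0725) or any Vector library (0.0578, 0.0536 and 0.0627).

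HLA-E was at 208, 203 and 213 CPM with Vector, 196, 194 and 209.7 CPM with ANKRD10-1 and 227, 202 and 206 CPM with ANKRD10-2, and these overlapped. Its log2 differences were −0.01 (95% interval −0.11 to 0.08) and 0.10 (−0.01 to 0.22). HLA-F was at 14.1 to 15.8 CPM with Vector, 11.8 to 13.2 CPM with ANKRD10-1 and 12.5 to 13.2 CPM with ANKRD10-2. Although no library overlapped, neither difference passed (−0.24, adjusted p = 0.091, and −0.13, adjusted p = 0.267). The summed heavy chains were lower, at −0.20 (SE 0.04, adjusted p = 0.00776) and −0.15 (SE 0.05, adjusted p = 0.0371). The calls on the sum were lost for ANKRD10-1 without its replicates 1 or 2 (0.0521 and 0.0504) and for ANKRD10-2 without its replicates 2 or 3 (0.15 and 0.136) or any Vector library (0.112, 0.0665 and 0.0978). The HLA-B share of heavy chain counts was 41.0% ± 0.62 with Vector (SD, n = 3), 37.4% ± 0.76 with ANKRD10-1 and 36.3% ± 0.13 with ANKRD10-2.

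B2M was at 610.4, 536 and 585 CPM with Vector, 498, 497 and 461 CPM with ANKRD10-1 and 475, 415 and 482 CPM with ANKRD10-2. All were below Vector, with log2 fold changes of −0.20 (SE 0.05, adjusted p = 0.0266) and −0.26 (SE 0.06, adjusted p = 0.0109). These calls were lost for ANKRD10-1 without its replicates 2 or 3 (adjusted p = 0.0648 and 0.103) or Vector replicate 1 (0.14), and in the fit of all libraries of the table (0.0573), and for ANKRD10-2 without its replicate 2 (0.0508) or Vector replicate 1 (0.0666).

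TAP1 was at 31.2, 27.8 and 30.6 CPM with Vector, 23.0, 21.4 and 22.1 CPM with ANKRD10-1 and 22.5, 22.2 and 24.7 CPM with ANKRD10-2. The falls were 0.39 (SE 0.07, adjusted p = 0.00165) and 0.29 (SE 0.07, adjusted p = 0.0121), the latter with an adjusted p of 0.0611 without Vector replicate 1. TAP2, at 46.5, 41.6 and 47.9 CPM with Vector, was at 38.6, 39.1 and 42.4 and at 45.0, 42.9 and 42.9 CPM, overlapping Vector in both. Its log2 differences of −0.14 (95% interval −0.27 to −0.01, adjusted p = 0.201) and 0.02 (−0.12 to 0.16) did not pass. TAP2 counts per TAP1 count were 1.52 ± 0.04 with Vector, 1.81 ± 0.12 with ANKRD10-1 and 1.89 ± 0.14 with ANKRD10-2 (SD, n = 3), without overlap. TAPBP was at 25.6, 28.8 and 24.3 CPM with Vector and fell by 0.36 (SE 0.08, adjusted p = 0.00566) to 20.5, 18.4 and 18.9 CPM with ANKRD10-2. With ANKRD10-1 it was at 20.5, 22.5 and 23.1 CPM, a log2 difference of −0.21 (adjusted p = 0.111, or 0.0348 without Vector replicate 3).

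**Figure D4:**
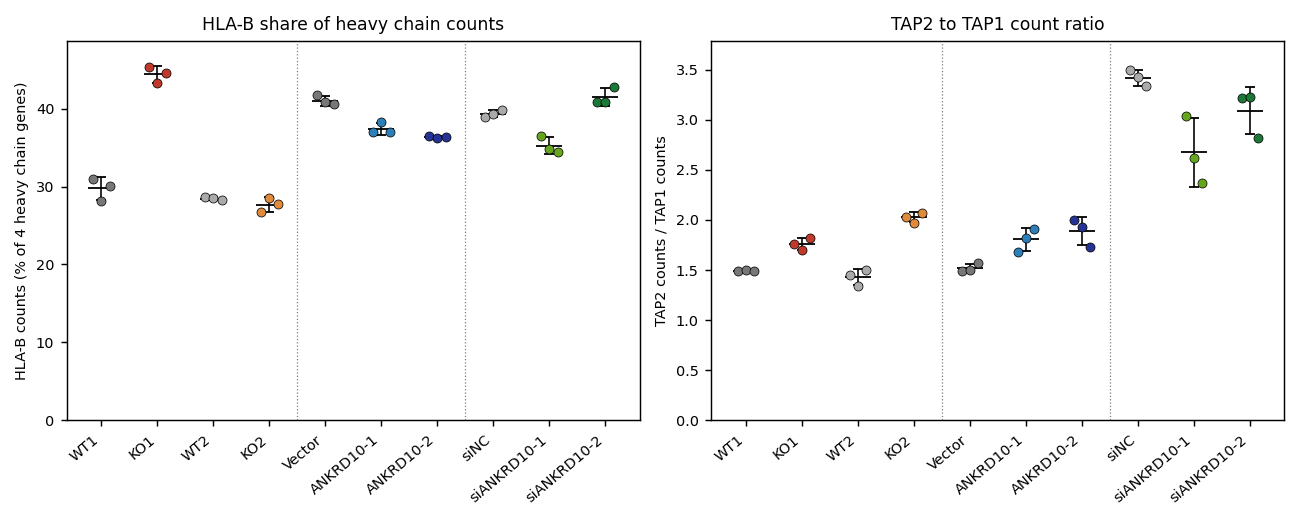
HLA-B counts as a percentage of the counts of the 4 heavy chain genes (left) and TAP2 counts per TAP1 count (right) in each of the 30 libraries, with the mean ± SD of 3 libraries and dotted lines between experiments. The HLA-B share is 43.3% to 45.4% in KO1 and 26.7% to 31.0% in the other 9 knockout libraries, and both knockouts and both overexpression groups have more TAP2 per TAP1 than their controls, whereas both siRNA groups have less.

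Compared directly, ANKRD10-2 and ANKRD10-1 differed in 0 of the 9 genes by edgeR (7.26% of all genes called), and leaving out any one library or using DESeq2 also gave 0. At an unadjusted p under 0.05, the genes were HLA-E, TAP2 and TAPBP. The 95% intervals of the differences lay within −0.43 and 0.28 for every member, the lower limit being that of NLRC5 and the upper that of TAP2, and that of HLA-B was −0.108 to 0.115.

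Interferon-stimulated genes fell in the same libraries. Of 38 listed, 34 were lower with ANKRD10-1 and 37 with ANKRD10-2, with medians of −1.52 and −1.75 beside the −0.21 and −0.26 of the class I genes, and BST2 was at −3.62 (SE 0.08) and −4.98 (SE 0.12). Among 26 transcription and signalling genes, 5 and 7 were lower, among them IRF9 at −1.54 (SE 0.05) and −1.69 (SE 0.05) and STAT2 at −0.56 (SE 0.07) and −0.69 (SE 0.07). IRF1, given here after its values were seen, was at 0.01 (SE 0.05) and 0.04 (SE 0.06) and was not called. Of the 14 genes of peptide supply and loading, 3 were higher and 4 lower with ANKRD10-1, and 3 higher and 3 lower with ANKRD10-2. Beside these list counts, 6.31% of all genes were called with ANKRD10-1, 2.81% as lower. With ANKRD10-2 the shares were 19.9% and 9.25%. PSMB9 fell by 0.53 (SE 0.11) and 0.63 (SE 0.11), and the chaperone CALR rose by 0.31 (SE 0.04) and 0.34 (SE 0.05).

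**Figure D5:**
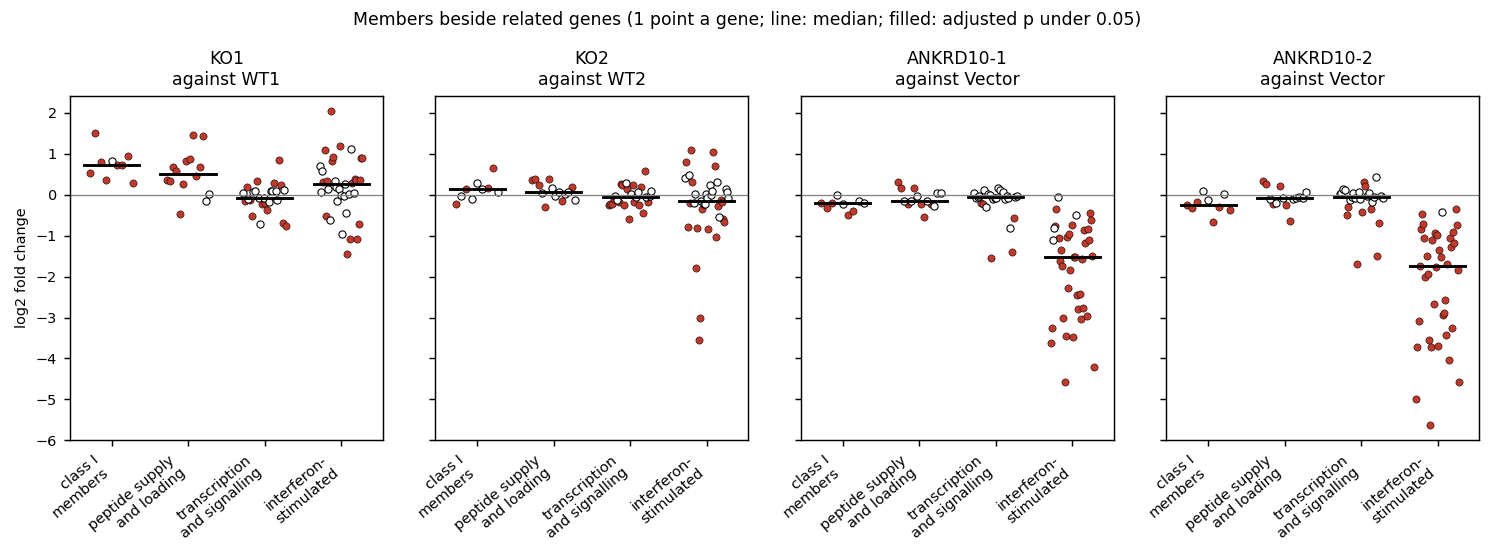
Log2 fold changes of the 9 class I genes beside the tested genes of peptide supply and loading, of transcription and signalling, and interferon-stimulated genes, with 1 point a gene, black lines for medians and filled points for an adjusted p under 0.05. In KO1 the class I and loading genes center on 0.74 and 0.52, and with ANKRD10-1 and ANKRD10-2 the class I medians of −0.21 and −0.26 lie far above the interferon-stimulated medians of −1.52 and −1.75.

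The third comparison asked what the siRNA named for each transcript did. ANKRD10 was counted over all transcripts together, so loss of either transcript itself was not measured. That total differed by −0.0017 on the log2 scale between siANKRD10-2 and siANKRD10-1 (SE 0.06, adjusted p = 0.985, edgeR's quasi-likelihood test). With siANKRD10-1, 2 of the 9 genes were lower than with siNC and none higher, where 10.6% of 18785 genes were called and 5.52% as lower. With siANKRD10-2, 2 were higher and 2 lower, where 36.3% of 18924 genes were called, 17.6% as higher and 18.7% as lower. The medians of the 9 genes were −0.08 and −0.03, against 0.0035 and 0.0011 over all genes, and these comparisons share the siNC libraries.

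HLA-B was at 124, 125 and 120.2 CPM with siNC, at 111, 99.5 and 101.1 CPM with siANKRD10-1 and at 152, 150 and 150.1 CPM with siANKRD10-2. One siRNA group lay wholly below siNC and the other wholly above it. The log2 fold changes were −0.24 (SE 0.06, adjusted p = 0.0109) and 0.27 (SE 0.05, adjusted p = 0.000178), the former with an adjusted p of 0.066 without siNC replicate 2. Set against each other, HLA-B was 0.51 higher with siANKRD10-2 than with siANKRD10-1 (SE 0.06, adjusted p = 1.82e-07). The HLA-B share of heavy chain counts was 39.4% ± 0.45 with siNC (SD, n = 3), 35.3% ± 1.08 with siANKRD10-1 and 41.5% ± 1.12 with siANKRD10-2. Summed heavy chains differed by −0.09 (SE 0.05, adjusted p = 0.306) and 0.19 (SE 0.05, adjusted p = 0.00372).

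HLA-C was at 127, 126 and 115 CPM with siNC, 128, 116 and 126 CPM with siANKRD10-1 and 142, 139 and 128 CPM with siANKRD10-2. The siANKRD10-2 difference of 0.12 had an adjusted p of 0.0945, and of 0.028 without siANKRD10-2 replicate 3 and 0.0184 with upper quartile factors. HLA-E was at 63.2, 63.1 and 63.0 CPM with siNC and at 74.2, 74.2 and 68.6 CPM with siANKRD10-2, a rise of 0.17 (SE 0.06, adjusted p = 0.0207). This call was lost without siANKRD10-2 replicates 1 or 2 (adjusted p = 0.089 and 0.101) or siNC replicates 1 or 2 (0.0607 and 0.0781). With siANKRD10-1 HLA-E was at 60.7, 66.6 and 62.7 CPM, on both sides of siNC. HLA-F, at 3.43 to 3.87 CPM with siNC, was at 3.04 to 4.40 and 3.89 to 4.63 CPM with the siRNAs and was not called.

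B2M was at 262, 270.1 and 276 CPM with siNC, 254, 264 and 247 CPM with siANKRD10-1 and 279.6, 251 and 278 CPM with siANKRD10-2. These values overlapped, and the log2 differences were −0.08 (95% interval −0.19 to 0.04) and −0.03 (−0.14 to 0.09), the latter 0.02 with upper quartile factors. TAP1 was at 13.6 to 14.98 CPM with siNC, 14.6 to 17.3 CPM with siANKRD10-1 and 13.3 to 14.5 CPM with siANKRD10-2, and neither difference passed. NLRC5 was at 5.97 to 7.38 CPM with siNC, 4.87 to 6.27 CPM with siANKRD10-1 and 5.998 to 6.41 CPM with siANKRD10-2, with log2 differences of −0.22 (95% interval −0.50 to 0.06) and −0.09 (−0.35 to 0.17).

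TAP2 was at 47.6, 49.99 and 50.02 CPM with siNC, at 44.3, 41.9 and 41.0 CPM with siANKRD10-1 and at 43.9, 43.0 and 40.8 CPM with siANKRD10-2. All 6 siRNA libraries were below siNC, with falls of 0.21 (SE 0.06, adjusted p = 0.034) and 0.24 (SE 0.06, adjusted p = 0.00293). The siANKRD10-1 call was lost without siANKRD10-1 replicates 1, 2 or 3 (adjusted p = 0.0633, 0.0568 and 0.103) and siNC replicates 2 or 3 (0.127 and 0.083). TAP2 counts per TAP1 count were 3.34 to 3.501 with siNC, 2.37 to 3.04 with siANKRD10-1 and 2.82 to 3.23 with siANKRD10-2, so both siRNA groups lay below siNC without overlap. TAPBP was at 27.6, 27.5 and 28.7 CPM with siNC, 25.6, 23.2 and 23.7 CPM with siANKRD10-1 and 22.3, 25.6 and 25.7 CPM with siANKRD10-2. It was lower in all 6 libraries, with log2 fold changes of −0.21 (SE 0.07, adjusted p = 0.0724) and −0.22 (SE 0.07, adjusted p = 0.022), the latter with an adjusted p of 0.154 without siANKRD10-2 replicate 1, 0.072 without siNC replicate 3 and 0.0746 with upper quartile factors.

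In the direct comparison of siANKRD10-2 with siANKRD10-1, 2 members were higher and 1 lower, where 37.0% of 18832 genes were called, 18.2% as higher and 18.8% as lower. Beside HLA-B these were HLA-E at 0.17 (SE 0.06, adjusted p = 0.0286) and TAP1 at −0.23 (SE 0.09, adjusted p = 0.0436). HLA-E lost its call without siANKRD10-1 replicates 1 or 3 (adjusted p = 0.167 and 0.0545) or siANKRD10-2 replicates 1 or 2 (0.111 and 0.13). TAP1 lost its call without siANKRD10-1 replicate 3 (0.206) or siANKRD10-2 replicates 1, 2 or 3 (0.111, 0.117 and 0.0533), with DESeq2 (0.075), with upper quartile factors (0.0779) and without the filter on low counts (0.063). HLA-E had an adjusted p of 0.0506 without the filter.

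For the list counts that follow, the shares over all genes were 10.6% called with siANKRD10-1, 5.52% as lower. The shares with siANKRD10-2 were 36.3% called, 17.6% as higher and 18.7% as lower. With siANKRD10-1, 2 of the 14 genes of peptide supply and loading were higher and 3 lower, among them PSMB10 at −0.38 (SE 0.10). Of 26 transcription and signalling genes 1 was higher and 7 were lower there, and of 35 interferon-stimulated genes 1 was higher and 8 were lower. With siANKRD10-2, 1 of the 14 genes of peptide supply and loading was higher and 5 were lower. Among the lower were PSMB10 at −0.69 (SE 0.11), PSMB9 at −0.40 (SE 0.12) and ERAP2, which trims peptides in the endoplasmic reticulum, at −0.38 (SE 0.07). With siANKRD10-2, 3 of the transcription and signalling genes were higher and 9 lower. IRF1, a direct activator of class I genes, was at −0.72 (SE 0.06, adjusted p = 2.83e-10) and IFNGR1, a chain of the interferon-γ receptor, at −0.54 (SE 0.05, adjusted p = 9.1e-09). RELA, the NF-κB subunit, was at 0.39 (SE 0.06, adjusted p = 5.38e-06). Of 35 interferon-stimulated genes tested, 7 were higher and 14 lower with siANKRD10-2, with SAMD9 at −1.42 (SE 0.06) and IFI44 at 1.10 (SE 0.14). The epithelial marker sum was lower with both siRNAs, at 4090 to 4240 CPM with siANKRD10-2 and 5900 to 6080 CPM with siANKRD10-1 against 6710 to 6840 CPM with siNC, and its part in these differences was not tested.

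Genes with a pattern most like a member were found as those at the smallest Euclidean distance over the 6 log2 fold changes against controls, among 11259 genes. For HLA-B these were SPAG4 (distance 0.373), LIFR (0.521) and STC1 (0.521), with KO1 log2 fold changes of 1.29, 1.52 and 1.71. For B2M they were HELB (0.0721), ZNF518B (0.202) and LPIN3 (0.212), and HELB was at 0.47 in KO1 and −0.20 in KO2, where B2M was at 0.53 and −0.22. For NLRC5 they were DDX28 (0.385), TRIM14 (0.402) and PNPT1 (0.418), of which PNPT1 was at −0.69 and −0.64 with ANKRD10-1 and ANKRD10-2.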

How the data were processed

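Poly(A) RNA-seq libraries of 5637 cells were grouped by their labels into 10 groups of 3. The authors deposited whole-number read counts per gene, without normalization, in 3 tables. The submitters' processing notes name Trimmomatic 0.36, featureCounts, Subread 1.5.1 and GRCh38, and the study's methods name HISAT2 and StringTie. The annotation and whether counting used strand are not given in the sources used here. In the knockout table, 42020 of 60612 identifiers were given a symbol. Totals were 28511029 to 69723937 counts per library.

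Each comparison was fitted in R 4.3.3 with edgeR 4.0.16 (filterByExpr with a minimum count of 10 and total of 15, TMM, quasi-likelihood test, prior count 0.125, limma 3.58.1 loaded), using only its own libraries, with p-values adjusted by Benjamini-Hochberg across every tested gene and a threshold of 0.05. The difference between knockouts used all 12 libraries. Exact permutation of 3 against 3 libraries cannot give a p under 0.1. Alternatives were DESeq2 1.42.0, other scaling factors, no filter, a replicate block, shared-spread fits, a fold minimum and leaving out each library. The fits were tested on simulated data.

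The members and gene lists were chosen with earlier results of these data known. Named beside the members were, for each list and comparison, at most 4 called genes with the largest change, no overlap between groups and 50 or more normalized counts on average, and any others are marked in the text. CPM values were counts divided by the plain library total and multiplied by 1000000. Libraries of a group differed by more than sampling noise, so none was counted as a duplicate.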

Additional observations from a re-analysis of the deposited data

Results flagged for a closer look

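The effects of the 2 RBPMS knockouts, each against its own WT libraries, differed by a direct test (edgeR's quasi-likelihood test of the KO1 effect minus the KO2 effect over 12 libraries, adjusted over all genes) for 7 of the 9 genes. Of all 19189 genes tested 23.3% differed, and 11.2% in the direction of these 7. On the log2 scale the KO1 effect was larger by 1.55 for HLA-B, 0.65 for HLA-C, 0.46 for HLA-E, 0.74 for B2M, 0.56 for TAP1, 0.29 for TAP2 and 0.59 for NLRC5. B2M was called in opposite directions in the knockouts and TAP2 was called higher in both, and the NLRC5 difference lost its call in 9 of the 12 fits that left out 1 library.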

How the results depend on the processing

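With a minimum absolute log2 fold change of 1 added to the adjusted p, the members called were 1 in KO1, 0 in KO2, 0 with each ANKRD10 transcript, 0 with each siRNA, 0 between the siRNAs and 1 in the difference between knockouts (HLA-B in both). The genes called were then 1149 in KO1, 1095 in KO2, 80 with ANKRD10-1, 241 with ANKRD10-2, 69 with siANKRD10-1, 500 with siANKRD10-2, 72 between the transcripts, 514 between the siRNAs, 16 between WT2 and WT1 and 1059 in the difference. Without the filter, members called fell to 2 in KO2 and 1 between the siRNAs, NLRC5 lost its call in the difference between knockouts (adjusted p = 0.0653), and genes called between the WT groups were 88, while DESeq2 called 679 genes and 1 member there. Upper quartile factors left 2 members called in KO2, and moved the KO2 heavy chain sum to −0.01627 (−0.0092 without the filter) and B2M with siANKRD10-2 to 0.0207, and TAP1 lost its call between the siRNAs (adjusted p = 0.0779). The cause of these changes was not tested. Replicate numbers were shared between groups, but deviations of same-numbered libraries correlated at only −0.079 to 0.17, and 0 of 9 comparisons had all 3 over 0.1, so the numbers were not taken as pairs. Each library correlated best with its own number in KO2 and in ANKRD10-2 against their controls. A replicate block left 1 member called between the siRNAs (HLA-E at an adjusted p of 0.0521 and TAP1 at 0.0547) and gave TAPBP with siANKRD10-1 an adjusted p of 0.0475, and it changed no other call of a member whose values are given. When each library was left out in turn, members called ranged from 3 to 6 with ANKRD10-1, 3 to 6 with ANKRD10-2, 2 to 4 in KO2, 0 to 2 with siANKRD10-1, 2 to 5 with siANKRD10-2 and 1 to 3 between the siRNAs. Genes called ranged from 700 to 1549 with ANKRD10-1, 2617 to 3533 with ANKRD10-2, 694 to 1396 between the transcripts, 949 to 2430 with siANKRD10-1 and 71 to 133 between the WT groups. The heavy chain sum ranged from −0.22 to −0.18 with ANKRD10-1, −0.20 to −0.12 with ANKRD10-2, −0.023 to 0.052 in KO2 and −0.0003264 to 0.076 between the transcripts. Of uncalled members, the sign turned for HLA-B in KO2 (−0.065 to 0.014), HLA-E with ANKRD10-1 (−0.038 to 0.011), TAP2 with ANKRD10-2 (−0.037 to 0.066), HLA-C (−0.023 to 0.052), HLA-E (−0.026 to 0.034) and HLA-F (−0.018 to 0.23) with siANKRD10-1, and B2M (−0.058 to 0.018) and NLRC5 (−0.15 to 0.037) with siANKRD10-2. How far depth or spread between libraries limits a member was not tested.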
